A study of Mus musculus with 6 samples.

Results

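Axl, Mertk and Tyro3 encode the TAM receptor tyrosine kinases, and Gas6 and Pros1 encode the secreted proteins that activate them. These 5 genes were picked by symbol from the 21929 genes of the deposited table, and each symbol had 1 row. They were compared between Biotin-positive and Biotin-negative cells of L929, an established mouse fibroblast line. The 3 Biotin-positive libraries (named E in the sample titles) come from L929 cells labelled as having interacted with MFCSTCL cells, a name that the labels do not expand. The 3 Biotin-negative libraries (named Ctrl) come from L929 cells labelled as not having interacted with tumour cells. Both groups are from co-culture, so no library shows L929 cells grown alone. The time in co-culture and the means of biotin labelling are not stated, and all 6 libraries carry the same batch date. Separate cultures are not recorded for the libraries of a group, so the p-values cover the spread from library to library and no more, and that spread may be technical.

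TAM receptors sit in the plasma membrane and carry a tyrosine kinase domain inside the cell. Their ligands bridge them to phosphatidylserine, a lipid that dying cells, activated platelets and some living cells show on their outer surface. GAS6 binds all TAM receptors, with its strongest binding to AXL, whereas protein S, the product of Pros1, activates MERTK and TYRO3. In phagocytes the receptors drive the uptake of dying cells and dampen innate immune signalling. AXL is also widely expressed in fibroblasts and in mesenchymal tumour cells, where it is tied to survival and migration.

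The 3 receptor genes went different ways. Axl was 3.20-fold higher in Biotin-positive cells, Mertk was 10.2-fold lower in them, and Tyro3 was 1.15-fold higher, as ratios of mean FPKM. FPKM scales the fragments of a gene by its length and by the size of the library, so levels of different genes can be set side by side. Of the ligands, Pros1 was 1.40-fold higher in Biotin-positive cells, while Gas6 was near 0 in both groups. Rose and fell mean here that a gene was higher or lower in Biotin-positive than in Biotin-negative cells at an adjusted p under 0.05 in limma, on log2(FPKM + 1), with Benjamini-Hochberg adjustment over all 11029 genes that reached 1 FPKM in at least 3 libraries. Differences on this scale are smaller than the plain ratio for low genes. Of the 4 members tested, 3 rose, against 37.8% of all tested genes, and 1 fell, against 36.1%. The groups did not overlap for these 4 members, and they did not overlap for 76.9% of all tested genes. Passing the test was therefore common in this comparison, with 73.9% of the genes called, and the sizes of the differences say more than the count. A rise of at least 1 on the log2 scale, which Axl had, was seen in 5.29% of the tested genes, and a fall of at least that size, which Mertk had, in 3.41%. In these bulk samples fewer cells of a type and less RNA per cell cannot be told apart. The same holds for a change within L929 cells and RNA from other cells, such as MFCSTCL cells, in the Biotin-positive libraries.

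**Figure D1:**
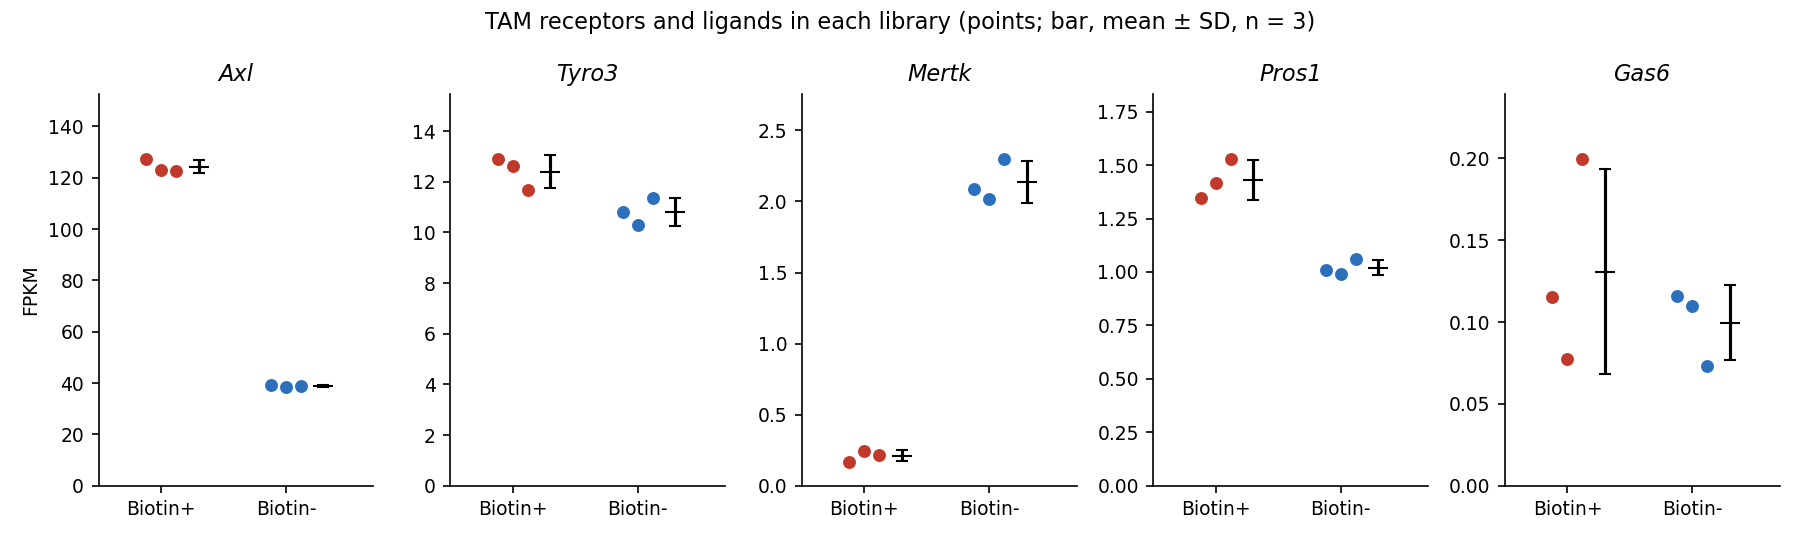
FPKM of the 5 genes in each library (points), with the mean and SD of the 3 libraries of a group beside them. Each panel has its own vertical axis from 0, and the Biotin-positive libraries (left) lie above the Biotin-negative ones (right) for Axl, Tyro3 and Pros1, below them for Mertk, and among them for Gas6.

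Axl lies on the minus strand of chromosome 7 (25757273 to 25788705, ENSMUSG00000002602), in coordinates that match GRCm38. It was at 127, 123 and 123 FPKM in the Biotin-positive libraries, against 39.2, 38.6 and 38.7 FPKM in the Biotin-negative ones. The libraries of each group lay close together and far from those of the other group. The means were 124 ± 2.64 FPKM in Biotin-positive cells and 38.8 ± 0.308 FPKM in Biotin-negative cells (SD, n = 3 each). The log2 difference was 1.65 (SE 0.0292, 95% interval 1.59 to 1.72, limma adjusted p = 1.78e-09). Only 158 of the 11029 tested genes had a larger positive log2 difference. A total of 423 tested genes had a higher mean level than Axl in Biotin-positive cells, and 1656 had one in Biotin-negative cells.

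Mertk, best known as the uptake receptor of macrophages and retinal pigment epithelium, lies on the plus strand of chromosome 2 (128698956 to 128802894, ENSMUSG00000014361). It was at 0.167, 0.244 and 0.216 FPKM in the Biotin-positive libraries, against 2.09, 2.02 and 2.30 FPKM in the Biotin-negative ones. It was low in every library, and each Biotin-positive value was far under each Biotin-negative one. The means were 0.209 ± 0.0387 FPKM in Biotin-positive cells and 2.14 ± 0.147 FPKM in Biotin-negative cells (SD, n = 3 each). Mertk fell by 1.37 on the log2(FPKM + 1) scale (SE 0.0653, limma adjusted p = 2.72e-07), and 140 tested genes had a more negative difference. It entered the test through the Biotin-negative libraries alone, since it stayed under 1 FPKM in all Biotin-positive ones. With a pseudocount of 0.1 in place of 1 the log2 difference was -2.86. Of the 14 macrophage markers, 3 were tested, and the defining genes Adgre1, C1qa, C1qb, C1qc and Timd4 were listed at 0 in all 6 libraries. The markers summed to between 15.0 and 18.1 FPKM in Biotin-positive libraries and to between 12.1 and 15.4 FPKM in Biotin-negative ones. Nearly all of this came from Cd68, Cd14 and Lyz2. Cd14 and Lyz2 rose and Cd68 fell, a call that Cd68 lost in 6 of 16 alternatives.

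Tyro3, a receptor prominent in the nervous system, lies on the plus strand of the same chromosome 2 (119797733 to 119818104, ENSMUSG00000027298). It was at 12.9, 12.6 and 11.7 FPKM in the Biotin-positive libraries, against 10.8, 10.3 and 11.4 FPKM in the Biotin-negative ones. The groups did not overlap, but the lowest Biotin-positive and the highest Biotin-negative library nearly met. The means were 12.4 ± 0.646 FPKM in Biotin-positive cells and 10.8 ± 0.550 FPKM in Biotin-negative cells (SD, n = 3 each). The log2 difference was 0.18 (SE 0.0558, 95% interval 0.05 to 0.31, limma adjusted p = 0.0172). The call was lost when libraries were rescaled to an equal FPKM sum (adjusted p = 0.0588). It was also lost without Biotin-positive replicate 1 (adjusted p = 0.0636), Biotin-positive replicate 2 (adjusted p = 0.0566) or Biotin-negative replicate 2 (adjusted p = 0.0533), in a range of adjusted p from 0.0103 to 0.0636 over 16 alternatives.

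Because FPKM is per length, the receptors can be added up. Their summed level was 136.9 ± 3.09 FPKM in Biotin-positive cells and 51.8 ± 0.791 FPKM in Biotin-negative cells (SD, n = 3 each). Axl made up 90.7, 90.5 and 91.2% of this sum in the Biotin-positive libraries, against 75.2, 75.8 and 73.9% in the Biotin-negative ones. The share of Tyro3 was 9.05 ± 0.334% in Biotin-positive cells and 20.9 ± 0.770% in Biotin-negative cells, although its own level was not lower. The share of Mertk was 0.153 ± 0.0309% in Biotin-positive cells and 4.12 ± 0.233% in Biotin-negative cells. Axl transcript exceeded Tyro3 transcript 10.04 ± 0.416-fold in Biotin-positive cells and 3.59 ± 0.178-fold in Biotin-negative cells.

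**Figure D2:**
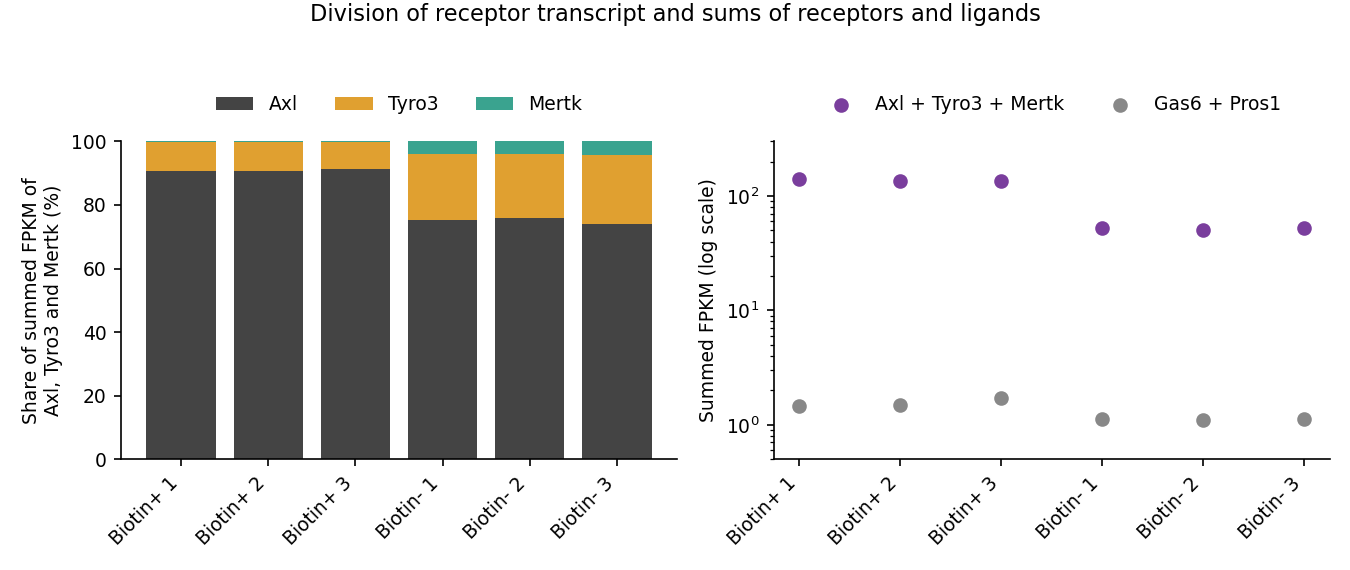
Left, the share of Axl, Tyro3 and Mertk in the summed FPKM of these receptors in each library; right, the summed FPKM of the receptors and of the ligands Gas6 and Pros1, on a log scale. Axl takes about 91% of the sum in Biotin-positive libraries and about 75% in Biotin-negative ones, and the receptor sum lies far above the ligand sum in all 6.

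Across the whole table the libraries of a group had Pearson correlations of 0.998 to 0.999 over genes, and libraries of different groups 0.977 to 0.978. The labelled cell type was checked against its markers. Of 14 fibroblast markers, 10 were tested, of which 2 rose and 8 fell, and Thy1, Dcn, Lum and Fap stayed under 1 FPKM in every library. Among all tested genes 37.8% rose and 36.1% fell, and the markers were not tested as a set. The fibroblast markers summed to 2879 to 2961 FPKM in Biotin-positive libraries and to 4422 to 4677 FPKM in Biotin-negative ones. The lower sum came from the matrix glycoprotein gene Fn1, which averaged 172 ± 4.53 FPKM in Biotin-positive cells and 2017 ± 84.6 FPKM in Biotin-negative cells (SD, n = 3 each). Without Fn1, an alternative chosen after seeing the data, the other 13 markers summed to 2704 to 2794 FPKM in Biotin-positive libraries and to 2479 to 2568 FPKM in Biotin-negative ones, so the direction of the sum turned, while 7 of the other 13 still fell. Vim, the gene of an intermediate filament protein, and S100a4, the gene of a calcium-binding protein, were the 2 that rose. Vim averaged 1418 ± 43.5 FPKM in Biotin-positive cells and 658 ± 14.0 FPKM in Biotin-negative cells. S100a4 averaged 722 ± 37.7 FPKM in Biotin-positive cells and 539 ± 15.7 FPKM in Biotin-negative cells. A near-identical match in another annotated gene covers 60.6% of the S100a4 transcript, so its level is uncertain. Of 17 epithelial markers, Krt7 and Krt8 reached 1 FPKM, while Krt20, Tff1 and Tff2 were listed at 0 in every library and Epcam and Cdh1 stayed close to 0. The epithelial markers summed to 45.6 to 48.0 FPKM in Biotin-positive libraries and to 1.38 to 1.53 FPKM in Biotin-negative ones. Krt7 and Krt8 reached 1 FPKM in Biotin-positive libraries alone, and Krt8 shares 51.8% of its transcript almost exactly with a pseudogene and a predicted gene, which makes its value uncertain. No endothelial marker reached 1 FPKM. The fall of 8 fibroblast markers and the rise of Vim, S100a4, Krt7 and Krt8 moved with the Axl and Mertk differences in the same libraries, and their part in them was not tested. Whether the Biotin-positive libraries hold RNA of MFCSTCL cells was not tested either.

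Pros1 lies on the plus strand of chromosome 16 (62854307 to 62929346, ENSMUSG00000022912) and encodes protein S, a plasma cofactor of anticoagulant protein C as well as a TAM ligand. It was at 1.35, 1.41 and 1.53 FPKM in the Biotin-positive libraries, against 1.01, 0.992 and 1.06 FPKM in the Biotin-negative ones. The values were low but the groups stood apart, with means of 1.43 ± 0.0930 FPKM in Biotin-positive cells and 1.02 ± 0.0350 FPKM in Biotin-negative cells (SD, n = 3 each). The log2 difference was 0.27 (SE 0.0610, limma adjusted p = 0.00389). With a pseudocount of 0.1 in place of 1 it was 0.45.

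Gas6 lies on the minus strand of chromosome 8 (13465374 to 13494490, ENSMUSG00000031451). It was at 0.115, 0.0774 and 0.200 FPKM in the Biotin-positive libraries, against 0.116, 0.110 and 0.0734 FPKM in the Biotin-negative ones. The groups overlapped, no library reached the 1 FPKM needed for testing, and an exact two-sided permutation test of the 3 against 3 libraries gave p = 0.5, where the smallest p this design allows is 0.1. Its exons share 34 bases with Tmem255b on the opposite strand, and the sources used here do not say whether strand was used in counting. Tmem255b was listed at 0 in 5 of the libraries and at 0.0369 FPKM in Biotin-negative replicate 1. The receptors exceeded the ligands in summed FPKM 88.3 ± 9.44-fold in Biotin-positive cells and 46.3 ± 0.0934-fold in Biotin-negative cells (SD, n = 3 each). In both groups Axl had the highest level of the 5 genes and Tyro3 the next. Mertk stood below Pros1 in Biotin-positive cells and above it in Biotin-negative cells. In Biotin-positive cells Mertk and Gas6, at the bottom of the order, overlapped in their values.

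The promoters of Axl and Mertk are printed because these receptors had the largest differences, in opposite directions. They are RefSeq sequences of GRCm38.p6, from 250 bases before to 50 after the annotated start site, read along the strand of the gene. Capitals mark matches on either strand to GGAATG, the core of the motif of TEAD factors, which are the DNA-binding partners of YAP and TAZ, or to GGGCGG, the GC box bound by SP and KLF factors. No match to TGANTCA, the motif of AP-1, was found in the window of either gene.
Axl, chr7:25788684-25788983, minus strand: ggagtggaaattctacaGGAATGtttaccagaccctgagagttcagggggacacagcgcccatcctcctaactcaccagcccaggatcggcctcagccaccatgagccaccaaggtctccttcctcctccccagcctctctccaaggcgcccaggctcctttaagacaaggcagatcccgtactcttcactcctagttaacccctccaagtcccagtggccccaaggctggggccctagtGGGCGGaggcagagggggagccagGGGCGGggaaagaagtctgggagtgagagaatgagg
Mertk, chr2:128698665-128698964, plus strand: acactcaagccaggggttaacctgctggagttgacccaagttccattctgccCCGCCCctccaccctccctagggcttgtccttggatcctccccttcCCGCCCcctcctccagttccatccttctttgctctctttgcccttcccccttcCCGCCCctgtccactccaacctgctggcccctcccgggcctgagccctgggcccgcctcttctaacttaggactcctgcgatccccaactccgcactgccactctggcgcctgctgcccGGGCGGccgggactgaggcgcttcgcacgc
The Axl window held 1 match to GGAATG, which starts 233 bases before the start site, and 2 matches to GGGCGG. The Mertk window held 0 matches to GGAATG and 4 to GGGCGG, 3 of them on the strand opposite to the gene. All 5 genes had a RefSeq promoter, and the windows of Tyro3, Gas6 and Pros1 held 0 matches to GGAATG, 0 to TGANTCA, and 6, 4 and 5 to GGGCGG, some of them overlapping. Among all 32851 RefSeq promoter windows of this length, 14.7% held GGAATG, 7.81% held TGANTCA and 35.7% held GGGCGG. A match describes the letters of the window and does not show that a factor binds there.

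Genes of factors that have been reported to act on Axl transcription were mostly higher. Of 16 tested, 10 rose, 4 fell and 2 did not pass, and their median log2 difference was 0.29, against 0.01 over all tested genes. Among all tested genes 37.8% rose and 36.1% fell, and neither the list as a set nor its link to Axl was tested. Yap1, which encodes the coactivator named in the title of the series, was at 144, 136 and 134 FPKM in the Biotin-positive libraries, against 28.8, 28.7 and 28.0 FPKM in the Biotin-negative ones. Its log2 difference was 2.23 (SE 0.0347, limma adjusted p = 1.15e-09), larger than that of Axl. Of the AP-1 genes, Junb averaged 83.6 ± 2.17 FPKM in Biotin-positive cells and 48.3 ± 1.75 FPKM in Biotin-negative cells. Fosl1 was at 41.2, 37.5 and 38.5 FPKM in the Biotin-positive libraries, against 25.2, 21.1 and 23.2 FPKM in the Biotin-negative ones, but 62.5% of its transcript has a near-identical match in another annotated gene, so its level is uncertain. Fosl2 fell, with 33.8 ± 0.416 FPKM in Biotin-positive cells and 71.7 ± 1.42 FPKM in Biotin-negative cells (SD, n = 3 each).

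Among receptor tyrosine kinase genes as a whole, Axl changed its place. Of 58 such genes, 18 were tested, with 7 rises, 9 falls and a median log2 difference of -0.12, so the family had no common direction. Over all tested genes, 37.8% rose and 36.1% fell. Axl had the highest mean level of the 58 in Biotin-positive cells, with 29.96% of their summed mean FPKM, and the fourth highest in Biotin-negative cells, with 10.98%. It also had the largest log2 difference of the 18, and Mertk the most negative one. In Biotin-positive cells the next in level were Fgfr1, a fibroblast growth factor receptor, at 59.9 ± 3.52 FPKM, and Epha2, an ephrin receptor, at 52.6 ± 2.11 FPKM, both far below Axl. In Biotin-negative cells Fgfr1 (59.7 ± 4.25 FPKM) and the Wnt-binding Ryk (48.5 ± 0.275 FPKM) stood above Axl. The collagen receptor gene Ddr2, at 41.3, 39.2 and 40.4 FPKM in the Biotin-negative libraries, was only just above Axl there, and the values of both genes met at 39.2 FPKM. Epha2 rose, against 24.5 ± 1.23 FPKM in Biotin-negative cells, and Fgfr1 did not pass. Ryk, at 35.0 ± 0.567 FPKM in Biotin-positive cells, fell. Ddr2, at 24.9 ± 0.751 FPKM in Biotin-positive cells, fell too.

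**Figure D3:**
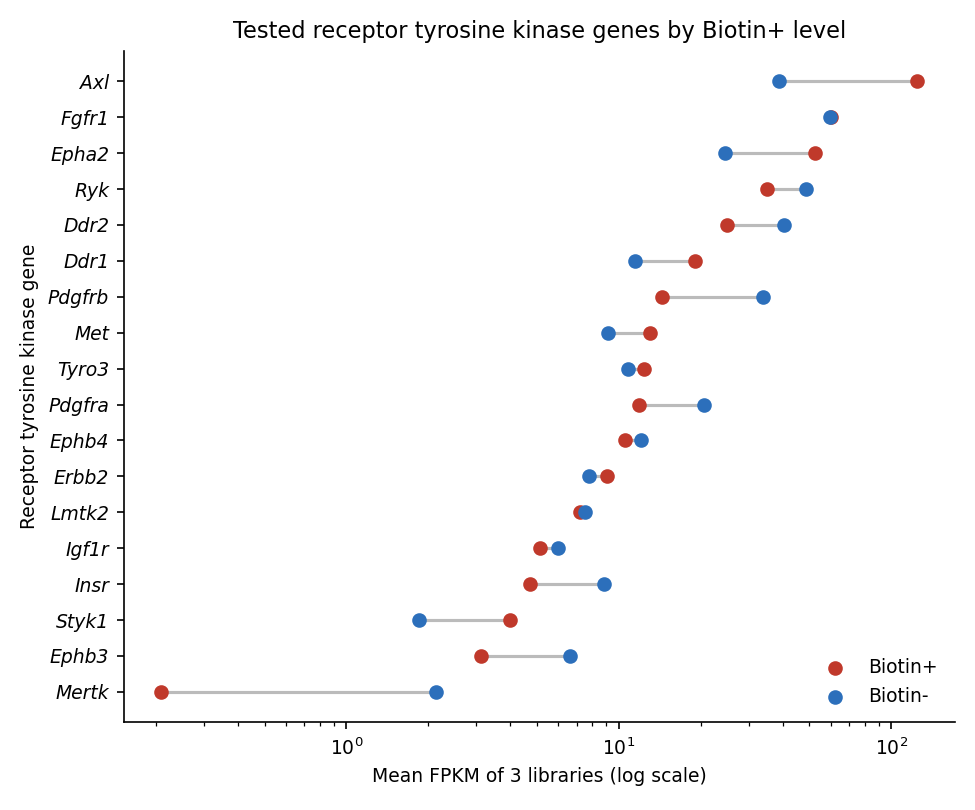
Mean FPKM (log scale, n = 3 libraries per group) of the 18 tested receptor tyrosine kinase genes, ordered by their Biotin-positive level. Axl is the highest in Biotin-positive cells and has a wide gap to its Biotin-negative level, and Mertk at the bottom has a gap in the opposite direction.

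Of 9 receptors that have been reported to pair with AXL, 5 were tested, of which 3 rose and 2 fell, with a median log2 difference of 0.20. Among all tested genes 37.8% rose and 36.1% fell. With no filter on low values 6 of the 9 rose and 2 fell, where 54.05% of all tested genes were called. The added rises were those of Egfr, Erbb3 and Il2rg, all low in both groups. Egfr averaged 0.148 ± 0.0324 FPKM in Biotin-positive cells and 0.00173 ± 0.00299 FPKM in Biotin-negative cells. Erbb3 averaged 0.239 ± 0.0777 FPKM in Biotin-positive cells and 0.0560 ± 0.0485 FPKM in Biotin-negative cells. Il2rg, a shared cytokine receptor chain, averaged 0.916 ± 0.0748 FPKM in Biotin-positive cells and 0.102 ± 0.0902 FPKM in Biotin-negative cells. Met, the receptor of hepatocyte growth factor, averaged 13.0 ± 0.201 FPKM in Biotin-positive cells and 9.12 ± 0.273 FPKM in Biotin-negative cells. Il15ra, which encodes a chain of the interleukin-15 receptor, averaged 7.50 ± 0.377 FPKM in Biotin-positive cells and 6.01 ± 0.184 FPKM in Biotin-negative cells. The platelet-derived growth factor receptor genes fell. Pdgfrb averaged 14.4 ± 0.456 FPKM in Biotin-positive cells and 33.9 ± 2.14 FPKM in Biotin-negative cells, and Pdgfra 11.8 ± 0.757 FPKM in Biotin-positive cells and 20.5 ± 0.863 FPKM in Biotin-negative cells (SD, n = 3 each).

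GAS6 and protein S work only after vitamin K-dependent carboxylation of glutamate residues, which lets them bind phosphatidylserine. Of the 6 genes of this cycle, 3 rose, 2 fell and 1 did not pass, with a median log2 difference of 0.07. Calls were common over all tested genes too, at 73.9%, with 37.8% rising and 36.1% falling. Ggcx, which encodes the carboxylase itself, fell, at 4.05, 4.31 and 3.73 FPKM in the Biotin-positive libraries, against 7.80, 10.2 and 8.60 FPKM in the Biotin-negative ones (log2 difference -0.97, limma adjusted p = 1.71e-05). Vkorc1, which regenerates the reduced vitamin, averaged 19.9 ± 0.950 FPKM in Biotin-positive cells and 28.3 ± 0.921 FPKM in Biotin-negative cells and fell too, but 53.7% of its transcript has a near-identical match in another annotated gene. Its paralog Vkorc1l1 averaged 17.7 ± 3.51 FPKM in Biotin-positive cells and 13.2 ± 1.06 FPKM in Biotin-negative cells, with overlapping groups. Its rise (limma adjusted p = 0.0226) did not hold without Biotin-positive replicate 1 (adjusted p = 0.0782), Biotin-positive replicate 2 (adjusted p = 0.0767) or Biotin-negative replicate 2 (adjusted p = 0.0685), with no filter on low values (adjusted p = 0.0600) or with a robust prior (adjusted p = 0.0523). Without Biotin-positive replicate 1 or Biotin-negative replicate 2, 3 of the 6 genes were called. Nqo1, a quinone reductase, averaged 9.01 ± 0.550 FPKM in Biotin-positive cells and 7.26 ± 0.198 FPKM in Biotin-negative cells.

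Other proteins carry the same carboxylated domain, and 2 of 13 such genes were tested. Prrg4, which encodes a membrane-bound one, was at 3.17, 2.78 and 2.70 FPKM in the Biotin-positive libraries, against 0.0150 FPKM in 1 Biotin-negative library and 0 in the other two. It was at or near 0 in the Biotin-negative libraries and above Pros1 in the Biotin-positive ones (log2 difference 1.95, limma adjusted p = 4.82e-08). It entered the test through the Biotin-positive libraries alone. With no filter on low values 12 genes of this list were tested, of which 1 rose and 5 fell, where 54.05% of all tested genes were called. The related Prrg2 averaged 8.59 ± 1.10 FPKM in Biotin-positive cells and 8.48 ± 1.05 FPKM in Biotin-negative cells and did not pass. Of the proteins other than GAS6 and protein S that have been reported as TAM ligands, 1 of 3 was tested. Lgals3, the gene of the lectin galectin-3, averaged 418 ± 14.3 FPKM in Biotin-positive cells and 194 ± 3.27 FPKM in Biotin-negative cells, and rose (log2 difference 1.10, limma adjusted p = 2.27e-08). It exceeded Gas6 and Pros1 in FPKM in every library.

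The genes that set phosphatidylserine exposure were mixed, with 3 rises, 3 falls and 3 not passing among 9 tested, and a median log2 difference of -0.04. Rises made up 37.8% of all tested genes and falls 36.1%. Plscr3, a scramblase-family gene, averaged 23.0 ± 1.43 FPKM in Biotin-positive cells and 12.4 ± 1.24 FPKM in Biotin-negative cells. The flippase-family gene Atp10a averaged 14.2 ± 0.333 FPKM in Biotin-positive cells and 7.65 ± 0.207 FPKM in Biotin-negative cells. Atp11a, a flippase that keeps phosphatidylserine on the inner leaflet, averaged 16.8 ± 1.10 FPKM in Biotin-positive cells and 28.6 ± 2.00 FPKM in Biotin-negative cells. The calcium-activated scramblase gene Ano6 averaged 20.5 ± 0.424 FPKM in Biotin-positive cells and 29.3 ± 1.24 FPKM in Biotin-negative cells (SD, n = 3 each). The caspase-activated scramblase gene Xkr8, at 2.41 ± 0.102 FPKM in Biotin-positive cells and 2.51 ± 0.125 FPKM in Biotin-negative cells, did not pass.

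Of 21 other genes for proteins that bind phosphatidylserine or take part in its recognition, 9 were tested. Of these 5 rose, 3 fell and 1 did not pass, with a median log2 difference of 0.29. With no filter on low values 6 rose and 7 fell. Of all tested genes, 37.8% rose and 36.1% fell with the filter, and 54.05% were called without it. Havcr2, which encodes TIM-3, averaged 5.09 ± 0.309 FPKM in Biotin-positive cells and 1.07 ± 0.283 FPKM in Biotin-negative cells. Anxa5, which encodes the phosphatidylserine-binding annexin A5, averaged 248 ± 7.59 FPKM in Biotin-positive cells and 125 ± 4.81 FPKM in Biotin-negative cells. Thbs1, which encodes the bridging glycoprotein thrombospondin 1, averaged 11.1 ± 0.554 FPKM in Biotin-positive cells and 3.59 ± 0.236 FPKM in Biotin-negative cells. The scavenger receptor gene Scarf1 fell, with 9.13 ± 0.106 FPKM in Biotin-positive cells and 16.7 ± 0.966 FPKM in Biotin-negative cells. Mfge8, the bridge between phosphatidylserine and integrins, stood at 138 ± 0.753 FPKM in Biotin-positive cells and 112 ± 2.59 FPKM in Biotin-negative cells (SD, n = 3 each). Its level was far above that of Gas6 and Pros1 in both groups.

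The machinery of engulfment, which acts inside the cell when TAM and related receptors take up material, was mostly lower. Of 12 tested genes 8 fell, 3 rose and 1 did not pass, with a median log2 difference of -0.49 against 0.01 over all tested genes. By comparison 36.1% of all tested genes fell and 37.8% rose, and this list was not tested as a set. Abca1, a lipid exporter linked to uptake, was at 0.682, 0.777 and 0.858 FPKM in the Biotin-positive libraries, against 6.74, 7.19 and 6.67 FPKM in the Biotin-negative ones. It had the most negative difference of the list (log2 difference -2.15, limma adjusted p = 2.25e-08), and it stayed under 1 FPKM in Biotin-positive cells. Elmo1, a partner of DOCK1 in the activation of Rac, averaged 11.2 ± 0.430 FPKM in Biotin-positive cells and 31.1 ± 0.342 FPKM in Biotin-negative cells. The adaptor gene Gulp1 averaged 5.93 ± 0.191 FPKM in Biotin-positive cells and 13.8 ± 2.17 FPKM in Biotin-negative cells. Abca7 averaged 9.17 ± 0.587 FPKM in Biotin-positive cells and 19.0 ± 0.619 FPKM in Biotin-negative cells (SD, n = 3 each). Rac1, Elmo2 and Bcar1 were the 3 that rose.

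Adaptors and carriers of the signal below TAM receptors had no common direction. Of 25 tested, 7 rose, 10 fell and 8 did not pass, with a median log2 difference of -0.04. By comparison 37.8% of all tested genes rose and 36.1% fell. The adaptor gene Grb2, at 20.7 ± 0.829 FPKM in Biotin-positive cells and 21.1 ± 0.529 FPKM in Biotin-negative cells, did not pass. Neither did Shc1, at 35.4 ± 0.137 FPKM in Biotin-positive cells and 34.8 ± 1.27 FPKM in Biotin-negative cells. The regulatory subunit genes of phosphoinositide 3-kinase fell. Pik3r2 averaged 10.4 ± 3.00 FPKM in Biotin-positive cells and 25.6 ± 3.91 FPKM in Biotin-negative cells, and Pik3r1 averaged 5.98 ± 0.292 FPKM in Biotin-positive cells and 10.7 ± 0.149 FPKM in Biotin-negative cells. The catalytic subunit gene Pik3cb rose, with 9.98 ± 0.399 FPKM in Biotin-positive cells and 5.56 ± 0.199 FPKM in Biotin-negative cells (SD, n = 3 each).

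Of 9 tested genes that remove TAM receptors from the surface, 5 fell, 1 rose and 3 did not pass, with a median log2 difference of -0.32. Over all tested genes 36.1% fell and 37.8% rose, and the list was not tested as a set. Adam17, a protease that sheds AXL and MERTK, was at 20.7, 20.7 and 20.7 FPKM in the Biotin-positive libraries, against 37.2, 36.1 and 36.9 FPKM in the Biotin-negative ones (log2 difference -0.80, limma adjusted p = 1.10e-07). The related sheddase gene Adam10, at 23.0 ± 0.442 FPKM in Biotin-positive cells and 22.2 ± 0.836 FPKM in Biotin-negative cells, did not pass. Rhbdf1, a trafficking partner of ADAM17, averaged 22.1 ± 0.6005 FPKM in Biotin-positive cells and 33.0 ± 2.17 FPKM in Biotin-negative cells. The ubiquitin ligase gene Cblb averaged 2.51 ± 0.0735 FPKM in Biotin-positive cells and 5.38 ± 0.339 FPKM in Biotin-negative cells, while its relative Cbl rose (SD, n = 3 each).

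TAM receptors dampen innate signalling in dendritic cells by using the interferon receptor to induce SOCS proteins. Of 11 tested genes of this axis, 5 rose, 3 fell and 3 did not pass, with a median log2 difference of 0.14. The shares over all tested genes were 37.8% for rises and 36.1% for falls. Socs1, a suppressor of cytokine signalling, averaged 3.64 ± 0.0409 FPKM in Biotin-positive cells and 1.53 ± 0.112 FPKM in Biotin-negative cells. Tnfaip3, an inhibitor of NF-kB signalling, averaged 6.84 ± 0.522 FPKM in Biotin-positive cells and 2.67 ± 0.196 FPKM in Biotin-negative cells. The transcription factor gene Twist1 was at 6.52, 6.78 and 5.92 FPKM in the Biotin-positive libraries and was listed at 0 in all 3 Biotin-negative ones. The interferon receptor gene Ifnar2 fell, with 26.0 ± 0.508 FPKM in Biotin-positive cells and 44.8 ± 1.96 FPKM in Biotin-negative cells (SD, n = 3 each).

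**Figure D4:**
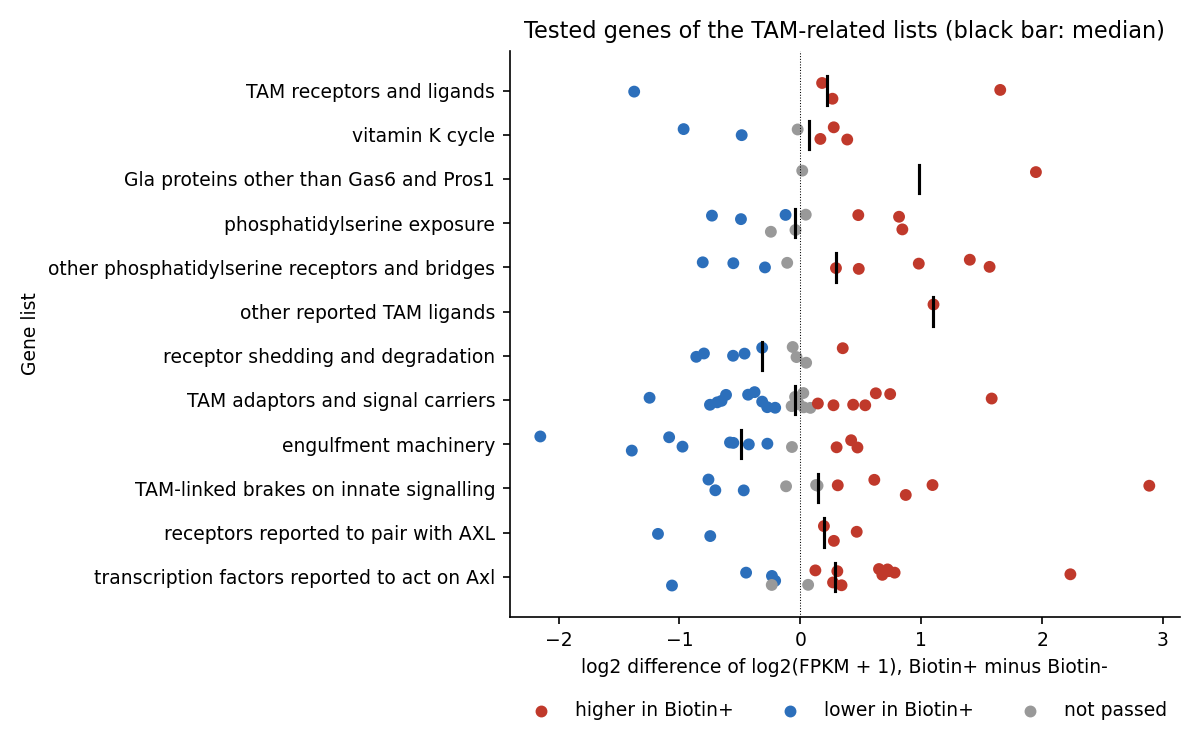
Log2 difference of log2(FPKM + 1), Biotin-positive minus Biotin-negative, for the tested genes of each TAM-related list, with the median of the list as a black bar. Points are coloured by whether the gene was higher or lower in Biotin-positive cells or did not pass; the engulfment list has its median at -0.49 and the list of factors on Axl at 0.29.

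The genes whose values over the 6 libraries were most like those of a member were found by the Euclidean distance of log2(FPKM + 1), each gene centred on its own mean. Since the libraries fall into 2 groups, this measure mostly finds genes with the same difference between the groups. For Axl the nearest was Tagln2, a calponin-family gene (distance 0.0455), followed by Ica1 (0.0593). Tagln2 was at 294 ± 8.23 FPKM in Biotin-positive cells and 93.8 ± 2.29 FPKM in Biotin-negative cells, above Axl in both, while Ica1 was close to 0 in Biotin-negative cells. For Mertk the nearest were Atxn7l2 (0.0373), Bcat2 (0.0625) and Olfml3 (0.0780). For Tyro3 they were Abhd17a (0.0227), Slfn2 (0.0447) and Mtg1 (0.0458), and for Pros1 Fam136a (0.0494), Sap18 (0.0495) and Tcf20 (0.0526).

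**Figure D5:**
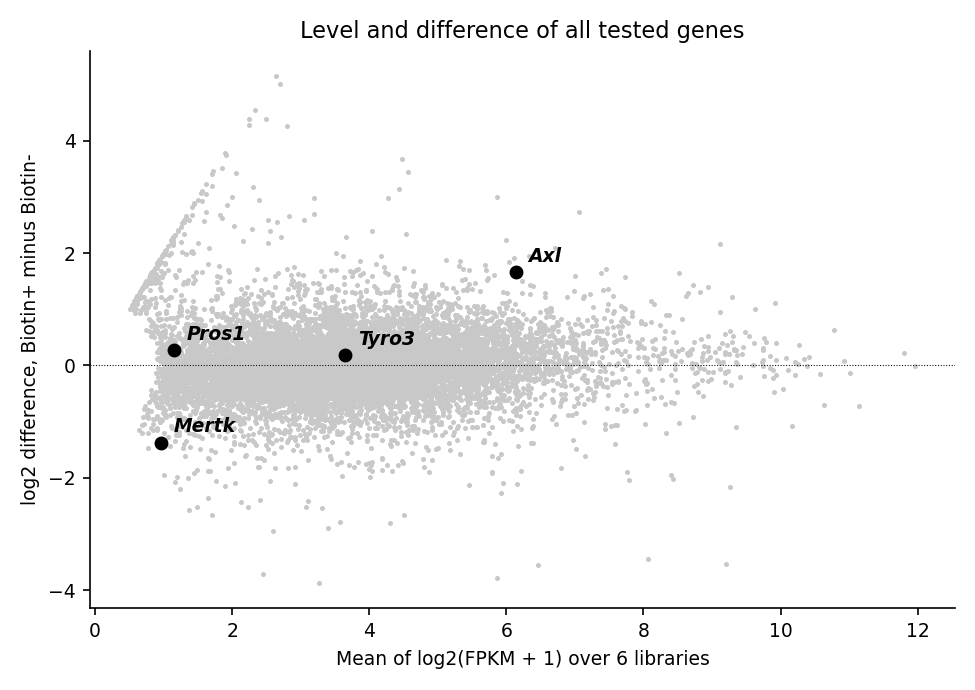
Mean of log2(FPKM + 1) over the 6 libraries against the log2 difference, Biotin-positive minus Biotin-negative, for all tested genes (grey) with the 4 tested members in black. Axl lies at 1.65 among well-expressed genes, Mertk at -1.37 near the low end of the levels, and Tyro3 and Pros1 lie within the bulk of the genes.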

How the data were processed

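RNA of L929 cells was sequenced on an Illumina instrument in 3 Biotin-positive and 3 Biotin-negative libraries. The deposited values are FPKM, with 1 column per library. Per the submitters' processing notes, cutadapt 1.9.1, HISAT2 2.2.1, HTSeq 0.6.1 and GRCm39 were used; the program that made the FPKM and the strandedness are not given in the sources used here. The coordinates in the deposited table are identical to GENCODE vM21 on GRCm38 for 21616 of 21816 shared identifiers, the 5 members included, so they are given as GRCm38. The values show no steps of single reads, so depth is unknown and no counting interval is given; precision is the SD over 3 libraries.

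The groups were set against each other in R 4.3.3 by limma 3.58.1 (lmFit and trended eBayes, two-sided) on log2(FPKM + 1) of all genes that reached 1 FPKM in 3 or more libraries, with Benjamini-Hochberg adjustment over 11029 genes. Fits that leave out a library kept these genes. The procedure was also run on simulated data with 200 changed genes. That is far fewer than the 8153 genes called here, so the run does not measure the error rate in these data. The members and the 17 gene lists were chosen with earlier results of these data known. From each list up to 4 passing genes with the largest difference are named, the 6 highest receptor tyrosine kinases, the 3 highest markers of each cell type, and the 3 nearest profiles of each tested member; some others were named after their values were seen. Some genes that this rule names are not reported here. Near-identical transcripts were sought with blastn 2.17.0 (98% identity, 100 bases). Python 3.11.15, numpy 2.4.6, pandas 2.3.3, scipy 1.17.1 and matplotlib 3.10.9 were used. Alternatives were pseudocounts of 0.1 and 0.5, no filter, a minimum of 5 FPKM, 3 scalings, 2 other variance priors, the replicate number as a block, and leaving out each library. No library stood apart from its group.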

Additional observations from a re-analysis of the deposited data

How the results depend on the processing

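The rises of Axl and Pros1 and the fall of Mertk kept their direction and their call under every alternative in which they were tested (16 for Axl, 15 each for the other two, which a minimum of 5 FPKM leaves out). The log2 difference of Axl ranged from 1.57 to 1.68, that of Mertk from -2.86 to -1.34 and that of Pros1 from 0.20 to 0.45. Tyro3 lost its call with an equal FPKM sum (0.12), and its log2 difference without single libraries ranged from 0.15 to 0.22; its cause was not tested. Gas6, which has no call, had a log2 difference of 0.039, of 0.18 with a pseudocount of 0.1, and between -0.0045 and 0.0731 without single libraries. The share of Axl in Biotin-positive cells was 90.4% after quantile normalization.

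The replicate number does not pair the libraries by the labels. Deviations of libraries with the same number correlated at 0.0371, 0.0120 and 0.0143, and Biotin-positive replicate 3 correlated best with Biotin-negative replicate 2 (0.0341). With the replicate block 8040 genes were called, against 8153 without it, and no member changed its call, at a limma adjusted p of 7.92e-07 for Axl, 1.69e-05 for Mertk, 0.0110 for Pros1 and 0.0368 for Tyro3. Fgfr1, which did not pass, turned to -0.11 with quantile normalization, -0.056 with an equal FPKM sum, and ranged from -0.040 to 0.060 without single libraries. Of 50 other tested genes picked by the naming rule 3 changed a call or sign, namely Fgfr1, Vkorc1l1 and Cd68. With no filter on low values 23 receptor tyrosine kinases were called against 13, with Axl, Mertk and Tyro3 left out of both counts. Without that filter, 13 phosphatidylserine receptors and bridges were called against 8, and 8 receptors reported to pair with AXL against 5. Of the proteins with the carboxylated domain, 6 were called with no filter, 1 with it and 0 with a minimum of 5 FPKM. Over all tested genes 54.05% were called with no filter, against 73.9% with it. Levels under 1 FPKM, such as those of Gas6, rest on an unknown number of reads.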
